A study of Mus musculus with 12 samples.

Results

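The genes described here are 10 members of the transforming growth factor beta (TGF-beta) pathway, chosen by name from the count table of mouse left ventricle. They are the ligand genes Tgfb1, Tgfb2 and Tgfb3, the receptor genes Tgfbr1, Tgfbr2 and Tgfbr3, the signal transducer Smad3, and the inhibitors Smad6, Smad7 and Bambi. All 10 were found among 29564 genes, and all 10 were among the 14333 genes that passed the filter on low counts.

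Left ventricles of 12 wild-type C57BL6 mice were used for sequencing of polyadenylated RNA, each as 1 library, and each of 3 groups held 4 mice. Control + Veh mice were non-failing and received vehicle (DMSO, PEG-300 and purified water). HFpEF + Veh mice received the same vehicle and were a model of HFpEF (heart failure in which ejection fraction is preserved), made by a high-fat diet (HFD) together with L-NAME, an inhibitor of nitric oxide synthase. HFpEF + TYA-018 mice had that model and received TYA-018, an oral inhibitor of the cytoplasmic deacetylase HDAC6, at 15 mg/kg. The title of the series names 1 dose, whereas the treatment note in the labels describes daily doses over 6 to 9 weeks, and the title is followed here. In the paper's single-dose experiment hearts were taken 6 h after dosing, and the paper describes its mice as male. The model has no genetic change, and the labels give no age, sex or batch. Control libraries are called C1 to C4, untreated model libraries (HFpEF + Veh) V1 to V4 and treated libraries (HFpEF + TYA-018) T1 to T4, ordered by animal number. Those numbers run together within each group, so an effect of cage, date or handling order that followed them and the group cannot be told apart.

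TGF-beta ligands are secreted in a latent form and, once released, bring together the type II receptor TGFBR2 and the type I receptor TGFBR1, which phosphorylates SMAD2 and SMAD3. These proteins enter the nucleus with SMAD4 and switch on target genes that include matrix genes in fibroblasts and the genes of several of the pathway's own inhibitors. SMAD7 blocks the type I receptor, SMAD6 acts mainly on the related bone morphogenetic protein (BMP) branch, and BAMBI is a membrane protein that resembles a type I receptor without its kinase. In the heart the pathway is best known for its part in fibrosis and in the biology of endothelial cells.

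Promoter sequence shows where SMAD proteins could in principle bind near genes that moved together. Windows of 250 bases before the start of transcription were taken from RefSeq (GRCm38.p6) for 6 of the 10 genes. None was taken on the chromosome of Smad7 and Bambi, which was left out of the search for these genes. The windows of Smad6, Tgfbr2 and Tgfb2, genes that differed between groups, are given 5′ to 3′ on the gene's strand. Tgfb1 differed as well, and its window, which held no match, is not printed. Capitals mark matches to the searched motifs on either strand.
Smad6 (chr9:64022060-64022309, minus strand): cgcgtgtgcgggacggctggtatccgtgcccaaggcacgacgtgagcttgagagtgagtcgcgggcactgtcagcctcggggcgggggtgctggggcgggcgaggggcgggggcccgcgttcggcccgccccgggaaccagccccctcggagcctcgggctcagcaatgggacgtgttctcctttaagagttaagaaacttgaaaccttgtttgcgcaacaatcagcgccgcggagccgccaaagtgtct
Tgfbr2 (chr9:116175364-116175613, minus strand): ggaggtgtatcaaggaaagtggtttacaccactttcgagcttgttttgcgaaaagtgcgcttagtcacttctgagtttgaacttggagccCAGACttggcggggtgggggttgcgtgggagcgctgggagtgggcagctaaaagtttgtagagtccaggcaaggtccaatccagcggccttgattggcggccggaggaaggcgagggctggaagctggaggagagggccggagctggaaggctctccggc
Tgfb2 (chr1:186705990-186706239, minus strand): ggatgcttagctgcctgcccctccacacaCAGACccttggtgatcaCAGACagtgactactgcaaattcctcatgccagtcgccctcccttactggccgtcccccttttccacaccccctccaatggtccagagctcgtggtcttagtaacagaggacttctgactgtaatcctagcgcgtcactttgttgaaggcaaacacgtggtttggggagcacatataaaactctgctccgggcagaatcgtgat
The first motif searched was CAGAC, the core of the SMAD3 and SMAD4 binding element, which on the other strand reads GTCTG. The second was its palindrome GTCTAGAC. The third was GGCGCC, a GC-rich palindrome that SMADs of the BMP branch bind. None of them contains another. CAGAC was found 2 times before Tgfb2, 1 time before Tgfbr2 and 1 time in the second of 2 windows of Tgfbr1 (chr4:47385966-47386215, plus strand), a gene that did not pass the test in any comparison, and at least 1 match was present in 42.2% of all 32851 windows of this length. No motif matched before Smad6, Tgfb1 or Smad3. GGCGCC matched 1 time in the first Tgfbr1 window and occurred in 9.59% of all windows. GTCTAGAC matched in none of the windows searched for these genes and occurred in 0.167% of all windows. No window of Tgfb3, Tgfbr3, Smad7 or Bambi was searched, so nothing is said here about motifs before those genes.

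The 10 genes lie on 7 chromosomes of the mouse genome (GRCm38) and all are annotated as protein-coding. Tgfb1 is at chr7:25687002-25705077 on the plus strand, Tgfb2 at chr1:186622792-186705989 on the minus strand and Tgfb3 at chr12:86056745-86079041 on the minus strand. Tgfbr1 is at chr4:47353222-47414931 (plus), Tgfbr2 at chr9:116084293-116175360 (minus) and Tgfbr3 at chr5:107106570-107289629 (minus). Smad3, at chr9:63646767-63757994, and Smad6, at chr9:63953076-64022059, are close neighbours on the minus strand of chromosome 9. Smad7 is at chr18:75367529-75395935 and Bambi at chr18:3507923-3516404, both on the plus strand. Tgfb3 overlaps Ttll5 on the opposite strand, and whether strand was used in counting is not given in the sources used here. Of all 50-base stretches of the Tgfbr3 transcripts, 3.85% also occur in the overlapping gene Gm43422, so reads from these stretches could have been split. Bambi shared no such stretch with another gene.

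Depth was similar across libraries, with totals of 61.2 to 83.9 M estimated counts, and the 10 genes were covered by 284 (Tgfb2) to 3132 (Tgfbr2) estimated counts per library. Mitochondrially encoded genes held 37.0% to 40.6% of counts in controls, 43.1% to 47.7% in the untreated model and 35.4% to 41.2% in treated mice. Globin genes held 0.154% to 0.240%, 0.420% to 1.32% and 0.255% to 0.341% of counts in the same order. Cardiomyocyte markers were abundant (summed 22224 to 32463 in CPM, counts scaled to a common library total, over the 12 libraries), and lower levels were found for markers of other tissue. The 4 atrial muscle markers summed to 127 to 244 CPM in controls, 61.8 to 147 in the untreated model and 139 to 164 in treated mice, nearly all of it from Nppa (59.5 to 242 CPM), a natriuretic peptide gene that ventricles also express and that fell by 0.77 in the model (adjusted p = 0.0458, edgeR). Of the other 3, Myl4 was at 1.76 to 2.58 CPM, and Myl7 and Sln stayed at or below 0.258 CPM. The 4 fat cell markers summed to 1.36 CPM in control library C1 and to at most 0.462 CPM in each of the other 11, with Cfd reaching 0.842 CPM, Adipoq 0.339, Lep 0.216 and Plin1 0.016. C1 was also the highest control for Tgfb2, Tgfb3 and the 3 receptor genes, and the part of fat tissue in those values was not tested.

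Before gene length is considered, CPM values compare only the same gene between libraries. Per length, in the deposited TPM (transcript abundance scaled by length and by library), Tgfb1 had the highest mean level over the 12 libraries (4.28 ± 2.28, SD), followed by Smad6 (2.47 ± 0.62) and Smad7 (1.86 ± 0.44). In that order each differed from the next by less than these SDs together. Tgfb3 (1.34 ± 0.21), Tgfbr3 (1.33 ± 0.31) and Tgfbr2 (0.99 ± 0.24) formed the middle of the order and did not differ from each other beyond these SDs. Tgfbr1 (0.486 ± 0.078), Bambi (0.483 ± 0.197) and Smad3 (0.453 ± 0.125) likewise did not differ from each other, and Tgfb2 was lowest (0.311 ± 0.050), within the combined SDs of Smad3. With CPM divided by the longest annotated transcript instead, Tgfb1, Smad6 and Smad7 again came first (13, 6.21 and 5.50 CPM per kilobase) and Tgfb2 last (1.15). Annotated lengths were taken from another GENCODE release than the one the paper names, and the effect of that difference was not tested. The deposited effective lengths, which set TPM, exceeded the longest annotated transcript in all 12 libraries for 6 of the 10 genes. For Tgfb1 they dropped to 1330 bases in V3 and 1361 bases in T4, against 2435 to 4638 bases elsewhere, and its TPM there was 10.0 and 7.15, against 2.54 to 5.84 elsewhere.

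**Figure D1:**
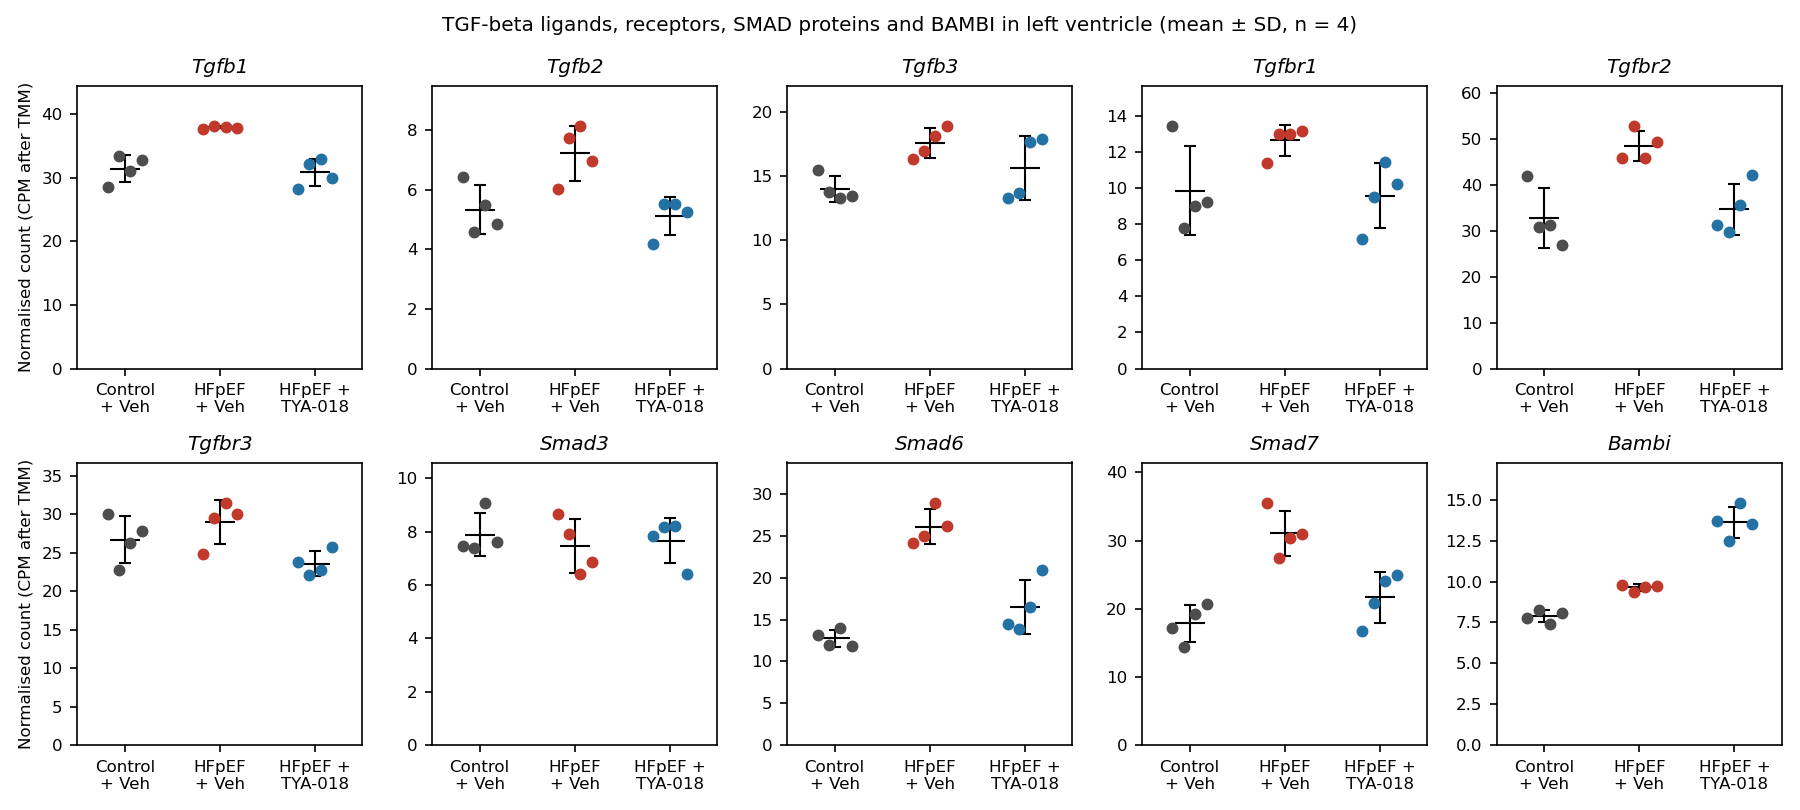
Normalised counts (CPM after TMM scaling, vertical axes starting at 0) of the 10 genes in each library of the 3 groups, with bars for mean ± SD (n = 4). HFpEF + Veh libraries lie above both other groups for Tgfb1, Tgfbr2, Smad6 and Smad7, and the HFpEF + TYA-018 libraries lie above both others for Bambi.

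The first comparison asked how the model itself differed from non-failing hearts, both on vehicle. In HFpEF + Veh ventricles 7 of the 10 genes were higher than in Control + Veh and none was lower. The inhibitors Smad6 and Smad7 differed most, by 1.03 and 0.80 on the log2 scale, and the type II receptor Tgfbr2, the 3 ligand genes and Bambi followed with 0.27 to 0.56. Tgfbr1, Tgfbr3 and Smad3 did not pass the test. Over all 14333 genes 21.2% were called (10.9% higher and 10.3% lower, edgeR's quasi-likelihood test, Benjamini-Hochberg adjusted p under 0.05). For 6 of the 10 genes no model library overlapped the control range, all higher in the model, against 23.5% of all genes in either direction. The median log2 fold change of the 10 genes was 0.34, beside -0.01 over all genes.

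The second comparison asked what TYA-018 did in the model. In HFpEF + TYA-018 ventricles 6 of the 10 genes were lower than in HFpEF + Veh and 1, Bambi, was higher. Smad6 fell by 0.66, Smad7 by 0.52, Tgfb2 by 0.50, Tgfbr2 by 0.48 and Tgfb1 and Tgfbr3 by 0.30 each on the log2 scale, while Bambi rose by 0.50. Tgfb3, Tgfbr1 and Smad3 did not pass the test. Over all genes 19.3% were called (8.93% higher and 10.4% lower). The groups did not overlap for 6 of the 10 genes (5 lower and 1 higher), against 25.1% of all genes, and the median log2 fold change was -0.35 beside 0.00 over all genes.

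The third comparison set treated model mice against controls. Bambi was the 1 gene of the 10 that passed, with a log2 fold change of 0.79, where 5.86% of all genes were called and 3.12% were called higher. It was also the 1 gene of the 10 without overlap between groups, against 14.8% of all genes. The 3 comparisons share libraries (HFpEF + Veh serves in the first and second), so their values for a gene are not independent of each other.

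**Figure D2:**
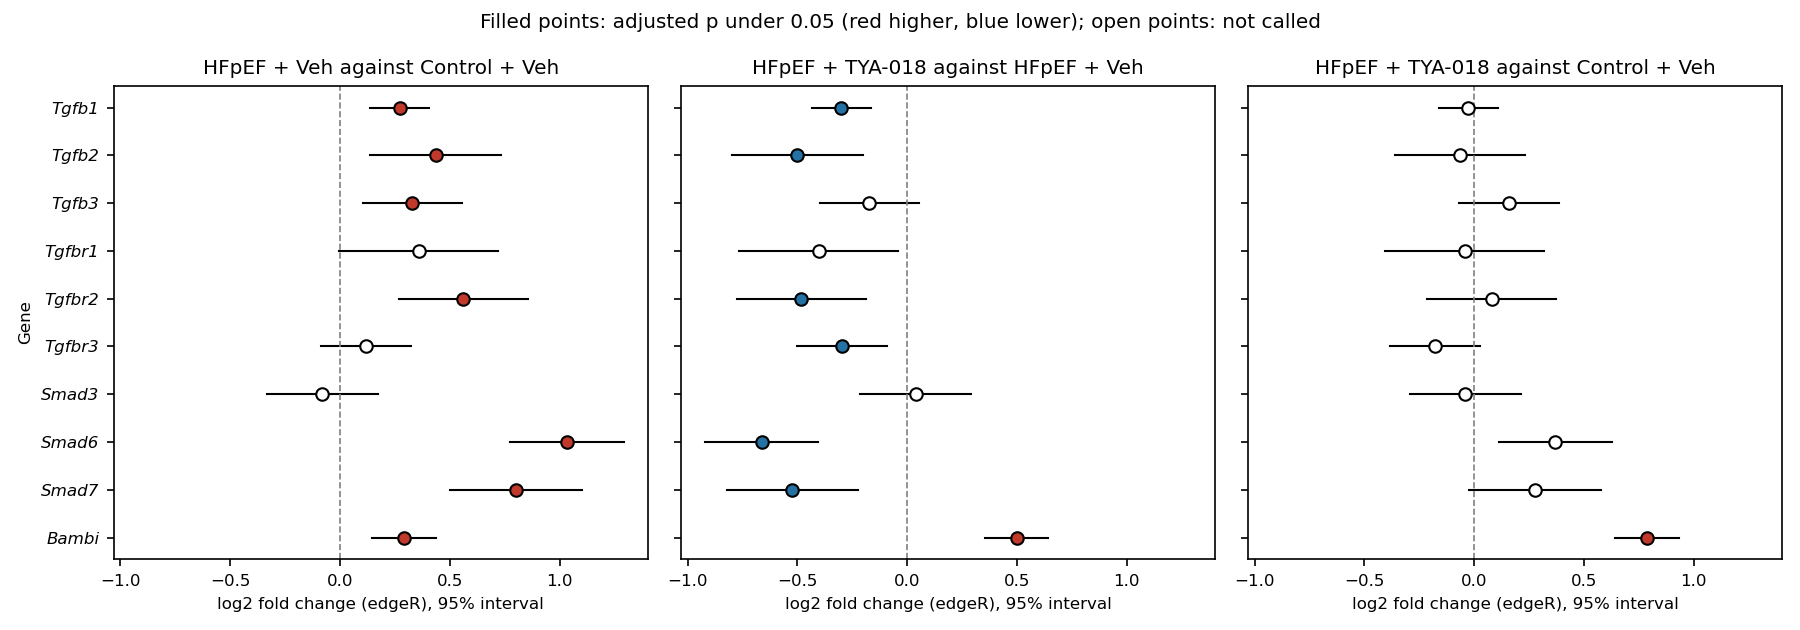
Log2 fold changes (horizontal axes, edgeR) of the 10 genes with 95% intervals in the 3 comparisons. Filled points passed the test (adjusted p under 0.05), red for higher and blue for lower, which gives 7 filled points in each of the first 2 panels and 1, Bambi, in the third.

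Tgfb1 encodes the main ligand of the adult heart. It was at 28.6, 33.4, 31.0 and 32.7 CPM in C1 to C4, at 37.8, 38.1, 38.1 and 37.9 CPM in V1 to V4, and at 28.2, 32.2, 33.0 and 30.0 CPM in T1 to T4. The 4 HFpEF + Veh libraries were nearly equal and stood above all others. Tgfb1 rose by 0.27 ± 0.06 (log2 fold change ± SE, n = 4 per group, adjusted p = 0.0101, edgeR) in the model and fell by 0.30 ± 0.06 (adjusted p = 0.00741) with TYA-018. Treated and control mice differed by -0.03 with a 95% interval of -0.16 to 0.11. With the deposited gene lengths taken into account neither call held (0.81 and -0.16, adjusted p = 0.202 and 0.830, edgeR with lengths as an offset), and on TPM the difference with TYA-018 turned to 0.11 to 0.37 without passing the limma test.

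Tgfb2, the ligand that needs TGFBR3 for efficient binding, was at 6.44, 4.59, 5.47 and 4.85 CPM in C1 to C4. In V1 to V4 it was at 6.02, 7.75, 8.13 and 6.98 CPM, and in T1 to T4 at 4.16, 5.53, 5.51 and 5.24 CPM. C1 reached into the HFpEF + Veh range, whereas all HFpEF + TYA-018 libraries lay below it. The rise in the model was 0.44 ± 0.14 (adjusted p = 0.0403, edgeR) and the fall with TYA-018 was by 0.50 ± 0.14 (adjusted p = 0.0255). The first call was lost in 6 of 8 fits that left out 1 library (C2, C3, C4, V2, V3 or V4, values of 0.37 to 0.45), and the second without V2, V3 or T1.

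Tgfb3, the third ligand gene, was at 15.5, 13.8, 13.3 and 13.4 CPM in Control + Veh and at 16.4, 16.9, 18.2 and 18.9 CPM in HFpEF + Veh. The treated libraries split, with 13.3 and 13.6 CPM in T1 and T2 and 17.6 and 17.9 CPM in T3 and T4. The first 2 groups did not overlap, and the treated libraries spanned both. The rise in the model was 0.33 ± 0.10 (adjusted p = 0.0417, edgeR), and that call too was lost without C2, C3, C4, V2, V3 or V4. The difference with TYA-018 was -0.17 with a 95% interval of -0.40 to 0.05 (adjusted p = 0.271, edgeR).

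Tgfbr1 encodes the signalling type I receptor. It was at 13.4, 7.80, 8.99 and 9.21 CPM in C1 to C4, at 11.4, 13, 13 and 13.2 CPM in V1 to V4 and at 7.16, 9.52, 11.4 and 10.2 CPM in T1 to T4. C1 was the highest library of all, so the first 2 groups overlapped. The model differed from control by 0.36 (95% interval -0.0039 to 0.72, adjusted p = 0.145, edgeR) and TYA-018 from HFpEF + Veh by -0.40 (95% interval -0.76 to -0.04, adjusted p = 0.112). Without C1 the first value was 0.55 and passed the test (adjusted p = 0.0140, edgeR).

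Tgfbr2 encodes the type II receptor, which binds the ligand first. It was at 42.1, 30.9, 31.4 and 27.0 CPM in C1 to C4, at 45.8, 52.8, 45.9 and 49.3 CPM in V1 to V4 and at 31.3, 29.7, 35.7 and 42.2 CPM in T1 to T4. All HFpEF + Veh libraries lay above all others, with C1 and T4 the nearest. Tgfbr2 rose by 0.56 ± 0.13 in the model (adjusted p = 0.0129, edgeR) and fell by 0.48 ± 0.13 with TYA-018 (adjusted p = 0.0279). The second call was lost without V2, V4, T1, T2 or T3.

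Tgfbr3 encodes betaglycan, a co-receptor that presents the ligand. Its CPM were 30.1, 22.8, 26.2 and 27.8 in C1 to C4, 24.8, 29.6, 31.5 and 30.1 in V1 to V4 and 23.8, 22.1, 22.8 and 25.8 in T1 to T4. All groups overlapped, and V1 was the library of the model that reached into the treated range. The model differed from control by 0.12 (95% interval -0.09 to 0.32, adjusted p = 0.396, edgeR). With TYA-018 Tgfbr3 fell by 0.30 ± 0.09 (adjusted p = 0.0444, edgeR), a call that was lost in 6 of 8 fits leaving out 1 library (V2, V3, V4, T1, T2 or T3).

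Smad3, the transducer that carries the signal to DNA, stayed between 6.41 and 9.08 CPM in all 12 libraries. Its values were 7.46, 7.38, 9.08 and 7.62 CPM in C1 to C4, 8.65, 7.91, 6.41 and 6.87 CPM in V1 to V4 and 7.84, 8.19, 8.21 and 6.42 CPM in T1 to T4. No group stood apart. The model differed from control by -0.08 (95% interval -0.33 to 0.17, adjusted p = 0.665, edgeR) and TYA-018 from HFpEF + Veh by 0.04 (95% interval -0.21 to 0.29, adjusted p = 0.849).

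Smad6, the inhibitory SMAD of the BMP branch, was at 13.2, 12, 14 and 11.9 CPM in C1 to C4, at 24.1, 25, 28.9 and 26.2 CPM in V1 to V4 and at 14.5, 13.9, 16.5 and 21.0 CPM in T1 to T4. The HFpEF + Veh libraries lay far above both other groups, and T4 was the treated library nearest to them. Smad6 rose by 1.03 ± 0.12 in the model (adjusted p = 0.000453, edgeR), an increase of 104%. It fell by 0.66 ± 0.12 with TYA-018 (adjusted p = 0.00392). Treated mice differed from controls by 0.37 (95% interval 0.11 to 0.63, adjusted p = 0.0888), which passed with DESeq2 and not with edgeR.

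Smad7, the inhibitory SMAD that blocks the TGF-beta type I receptor, was at 17.2, 14.3, 19.2 and 20.7 CPM in C1 to C4, at 35.5, 27.5, 30.4 and 30.9 CPM in V1 to V4 and at 16.7, 20.9, 24.1 and 24.9 CPM in T1 to T4. The model libraries lay above all others, and the treated libraries overlapped the controls. The rise in the model was 0.80 ± 0.14 (adjusted p = 0.0025, edgeR), an increase of 74.1%. The fall with TYA-018 was by 0.52 ± 0.14 (adjusted p = 0.0213) and was no longer called without V1, T1 or T2. Treated mice differed from controls by 0.28 (95% interval -0.02 to 0.58, adjusted p = 0.259).

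Bambi, the kinase-lacking decoy of the type I receptor, was on counts higher in the model and higher again with TYA-018. It was at 7.76, 8.29, 7.41 and 8.10 CPM in C1 to C4, at 9.82, 9.37, 9.65 and 9.76 CPM in V1 to V4 and at 13.7, 12.5, 14.8 and 13.5 CPM in T1 to T4. The 3 groups did not overlap at all, and the values within each were close. Bambi rose by 0.29 ± 0.07 in the model (adjusted p = 0.0106, edgeR) and by a further 0.50 ± 0.07 with TYA-018 (adjusted p = 0.00117). Against controls the treated mice were higher by 0.79 ± 0.07 (adjusted p = 0.000167), an increase of 72.7%. The 3 calls were kept in each of the 8 fits per comparison that left out 1 library, as were those of Tgfb1 and Smad6 in the first 2 comparisons. The call in the model ended with lengths as an offset (0.21, adjusted p = 0.232, edgeR), and the call against controls ended in all 4 limma tests on TPM (0.32 to 0.78, adjusted p = 0.0525 to 0.171). Mean TPM of Bambi was 0.368 ± 0.032 in controls and 0.366 ± 0.051 in the untreated model. None of the 4 limma tests called the rise in the model (-0.0079 to 0.083, or 0.067 to 0.16 less the median of all genes).

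Ratios of 2 genes within 1 library do not depend on how libraries were scaled. They use the same counts as the changes above and keep any difference in gene length, so they are not a separate test. Ratios of other pairs of genes were not computed as a background. The ratio of Smad6 to Smad3 counts was 1.62 ± 0.10 in controls, 3.57 ± 0.76 in the untreated model and 2.21 ± 0.72 in treated mice (mean ± SD, n = 4). The ratio of Smad7 to Smad3 was 2.27 ± 0.34, 4.21 ± 0.55 and 2.88 ± 0.75. For both, the model libraries lay above all controls, and T4 reached into the model range (3.27 and 3.89). Bambi to Smad7 moved the other way, with 0.452 ± 0.089 in controls, 0.312 ± 0.027 in the untreated model and 0.644 ± 0.121 in treated mice. Its model libraries (0.276 to 0.341) lay below all controls (0.387 to 0.578) and all treated libraries (0.541 to 0.819).

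**Figure D3:**
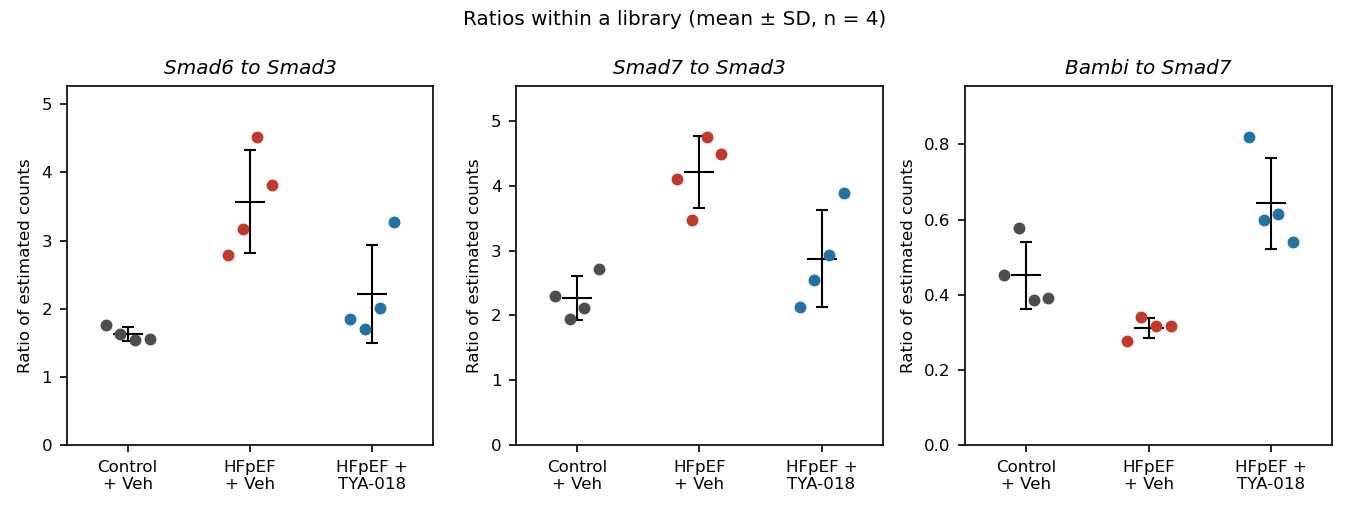
Ratios of estimated counts of 2 genes within each library (vertical axes starting at 0), with mean ± SD (n = 4) for the 3 groups. HFpEF + Veh libraries are highest on average for Smad6 to Smad3 and Smad7 to Smad3 (3.57 and 4.21) and lowest for Bambi to Smad7 (0.312).

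The calls above rest on counts, and gene length changed some of them. Across genes the deposited lengths were longest in the untreated model. The median over tested genes of log2 length, relative to the mean of the 12 libraries, was -0.068 to 0.0056 in controls. It was 0.026 to 0.097 in the untreated model and -0.17 to 0 in treated mice. For Tgfbr2 the mean length was 13945, 15297 and 12202 bases in the same order. This shift cannot be told apart from the groups, and its cause was not tested. With the deposited effective lengths as an offset in edgeR, Smad6 (0.99, adjusted p = 0.00334) and Smad7 (0.89, adjusted p = 0.0032) were the 2 genes still called in the model. Of the 5 whose call ended there, Tgfbr2 was at 0.50 (adjusted p = 0.0690, against 0.56 on counts), Tgfb3 at 0.31 (0.114, against 0.33), Tgfb2 at 0.28 (0.302, against 0.44), Bambi at 0.21 (0.232, against 0.29) and Tgfb1 at 0.81 (0.202, against 0.27). With TYA-018, Smad6 (-0.64, adjusted p = 0.0193), Smad7 (-0.44, adjusted p = 0.0421) and Bambi (0.50, adjusted p = 0.0168) were the 3 still called. Of the 4 whose call ended, Tgfb2 was at -0.54 (adjusted p = 0.0616, against -0.50 on counts), Tgfbr2 at -0.29 (0.270, against -0.48), Tgfb1 at -0.16 (0.830, against -0.30) and Tgfbr3 at -0.11 (0.601, against -0.30). The limma test on log2(TPM + 0.1) called Smad6 and Smad7 in the model and Bambi alone with TYA-018. On log2(TPM + 1) Smad6 was still called in the model (0.54, adjusted p = 0.0413, limma) and Smad7 was not (0.42, adjusted p = 0.0665), and when all genes above 0 were tested neither was (adjusted p = 0.05004 and 0.0689). Bambi was called with TYA-018 on both (0.32, adjusted p = 0.0257 and 0.0427). On log2(TPM + 0.1) the median of all genes moved by -0.17 in the model and by 0.34 with TYA-018. Less that median, Smad6 differed by 0.91 and Smad7 by 0.80 in the model, and with TYA-018 Smad6 by -0.56, Smad7 by -0.35 and Bambi by 0.45.

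**Figure D4:**
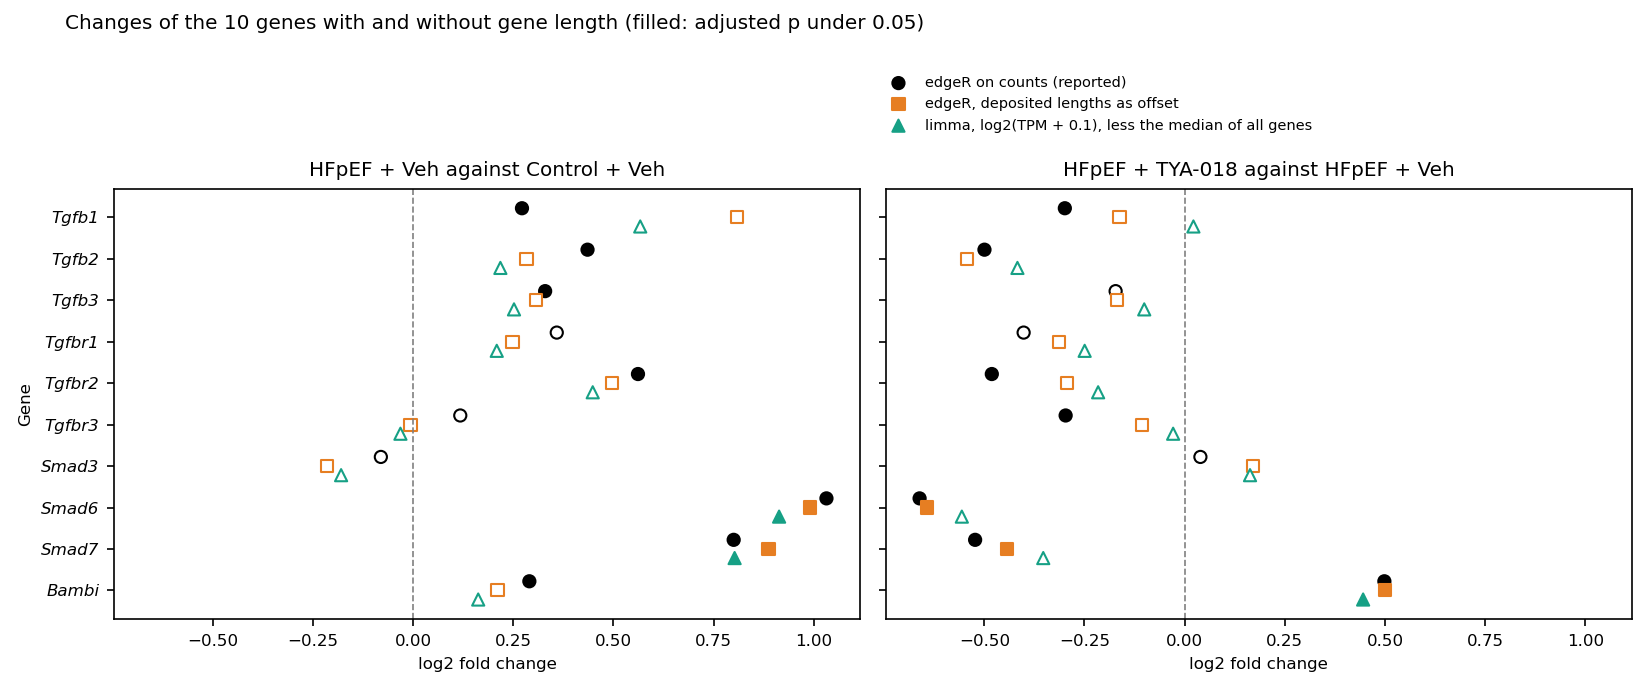
Log2 fold changes (horizontal axes) of the 10 genes in the first 2 comparisons from edgeR on counts, from edgeR with deposited gene lengths as an offset, and from limma on log2(TPM + 0.1) less the median of all genes. Filled symbols passed the test, run for limma before that median was taken off, which all 3 methods did for Smad6 and Smad7 in the model and for Bambi with TYA-018. On log2(TPM + 1), not drawn, Smad7 did not pass in the model (adjusted p = 0.0665).

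Markers of cell types moved with these genes, and in whole tissue fewer cells of a type and less RNA per cell cannot be told apart. Of all genes, 10.9% were called higher and 10.3% lower in the model, and 8.93% and 10.4% with TYA-018. The 6 endothelial markers summed to 730 to 937 CPM in controls, 976 to 1150 in the untreated model and 697 to 901 in treated mice, with 3 of 6 called higher in the model and 4 of 6 called lower with TYA-018. The 6 fibroblast markers summed to 331 to 620, 591 to 850 and 419 to 608 CPM in the same order, with 3 of 6 called in each of these comparisons. Of 5 macrophage markers 5 rose in the model and 3 fell with TYA-018 (76.2 to 89.9, 117 to 151 and 81.6 to 95.4 CPM summed). All 5 red cell markers rose and fell in the same comparisons (summed 2020 ± 345, 8203 ± 4159 and 2911 ± 569 CPM). The 6 mural cell markers summed to 711 to 780, 832 to 888 and 626 to 765 CPM, with 1 called higher and 1 called lower. Lymphocyte markers summed to 1.12 to 2.94 CPM in all libraries. Of 6 cardiomyocyte markers 4 fell and 1 rose in the model, and 1, Myh6, rose with TYA-018.

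Dividing by the summed endothelial markers of the same library, a scale chosen after the data were seen, left fewer of the 10 genes apart than the count scale in the first 2 comparisons and more in the third. Smad6 was at 15.8 ± 1.66 CPM per 1000 CPM of markers in controls, 25.3 ± 3.54 in the untreated model and 21.3 ± 1.54 in treated mice, and the model and treated libraries both lay above all controls while overlapping each other. Bambi was at 9.81 ± 1.21, 9.34 ± 0.65 and 17.9 ± 2.15, with the treated libraries above both other groups and these 2 overlapping. Smad3 was lower in the model on this scale (7.18 ± 0.55 against 9.81 ± 1.57, no overlap). Model and control thus did not overlap for 2 of the 10 genes, against 34.2% of all genes, and treated and untreated model for 1 of the 10, against 41.4% of all genes. Tgfb3 was at 17.3 ± 0.80 in controls, 17.1 ± 2.25 in the untreated model and 20.3 ± 1.87 in treated mice, with the treated libraries (19.0 to 23.0) above all controls (16.5 to 18.4). Tgfb3, Smad6 and Bambi were the 3 of the 10 genes without overlap between treated mice and controls, where 7.1% of all genes did not overlap. The summed fibroblast markers came mostly from Gsn, at 335, 501 and 342 CPM of 479, 715 and 503 on average in the 3 groups. Gsn was not called in the first 2 comparisons (adjusted p = 0.149 and 0.180, edgeR), so this scale follows mainly 1 gene. Divided by the fibroblast markers, all 10 overlapped between model and control (21% of all genes did not) and between treated mice and controls (1.89% did not). Bambi alone lay higher with TYA-018 (27.7 ± 4.49 against 13.8 ± 2.64, 26.5% of all genes without overlap). The part of any cell type in the results on the count scale was not tested.

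The other genes of the pathway were taken from lists of general knowledge, chosen with earlier results of these data known. Over all genes, 10.9% were called higher and 10.3% lower in the model, and 8.93% and 10.4% with TYA-018. Latency and activation genes hold the ligand in the matrix or release it, and of 14 tested 5 rose and 1 fell in the model, while 1 rose and 3 fell with TYA-018. Thrombospondin 1 (Thbs1), which activates latent TGF-beta, went from 4.45 ± 1.08 CPM in controls to 8.33 ± 0.69 in the model and 3.73 ± 0.96 with TYA-018 (log2 fold changes 0.90 and -1.16, adjusted p = 0.00904 and 0.00344, edgeR). Fibrillin 1 (Fbn1), a microfibril protein that anchors latent complexes, changed by 0.71 and -0.62, and the latent binding protein gene Ltbp4 by 0.42 and -0.27, all called. Furin, the protease that cleaves the precursor, rose by 0.44 in the model and differed by -0.22 with TYA-018 (adjusted p = 0.0992). Itgb6, named here after its values were seen, was the gene that fell in the model and the one that rose with TYA-018. It changed by -0.71 and 0.83 (adjusted p = 0.0115 and 0.0067, edgeR), without overlap in either comparison.

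Of 9 other receptors tested, 2 rose in the model and 3 fell with TYA-018, beside 10.9% and 10.4% of all genes. Endoglin (Eng), an endothelial co-receptor, was at 205 ± 17.3 CPM in controls, 297 ± 18.6 in the model and 216 ± 25.3 with TYA-018 (0.53 and -0.46, adjusted p = 0.0022 and 0.00569, edgeR). Acvrl1, the endothelial type I receptor ALK1, changed by 0.30 and -0.33, both called. The BMP type II receptor gene Bmpr2 differed by 0.31 in the model (adjusted p = 0.137) and fell by 0.48 with TYA-018.

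Of 19 other SMADs and their modifiers, 6 rose and 1 fell in the model, and 5 fell with TYA-018. Of all genes, 10.9% rose and 10.3% fell in the model, and 10.4% fell with TYA-018. Skil, a repressor of SMAD transcription and a target of the pathway, was at 12 ± 1.25, 20.4 ± 0.76 and 11.7 ± 2.17 CPM in the 3 groups (0.76 and -0.80, adjusted p = 0.00148 and 0.00157, edgeR). Its relative Ski changed by 0.37 and -0.37, the membrane inhibitor gene Pmepa1 by 0.53 and -0.35 and the ubiquitin ligase gene Smurf2, which works with SMAD7, by 0.36 and -0.41. These 4 genes were called in both comparisons. The gene that fell in the model was Nedd4l, named here after its values were seen (-0.69, adjusted p = 0.00657, edgeR). It differed by 0.28 with TYA-018 (adjusted p = 0.186, edgeR).

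Of 12 BMP, activin and growth differentiation factor ligands, 3 rose in the model and 2 fell with TYA-018, beside 10.9% and 10.4% of all genes. Gdf15, a stress-induced member, was at 0.651 ± 0.203, 3.91 ± 1.57 and 2.11 ± 0.93 CPM (2.58 in the model, adjusted p = 0.0016, and -0.89 with TYA-018, adjusted p = 0.12, edgeR), and stayed higher in treated mice than in controls (1.69, adjusted p = 0.0303). Bmp6 was at 39.3 ± 6.10, 49.2 ± 5.20 and 31.6 ± 9.50 CPM and fell by 0.64 with TYA-018. Bmp4 fell by 0.43 with TYA-018 and was lower in treated mice than in controls as well (-0.49, adjusted p = 0.0102). Myostatin (Mstn) rose by 1.12 in the model from a mean of 0.395 CPM.

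Of 9 secreted antagonists, 4 rose in the model and 4 fell with TYA-018, beside 10.9% and 10.4% of all genes. Fstl1, a follistatin-like glycoprotein, was at 40.5 ± 7.23, 67.7 ± 7.57 and 50.1 ± 0.72 CPM (0.74 and -0.43, adjusted p = 0.00127 and 0.0185, edgeR). Fstl3, which binds activin, changed by 0.56 and -0.57, both called. Twsg1, a BMP-binding protein, rose by 0.33 in the model and stayed higher in treated mice than in controls (0.25, adjusted p = 0.0356). Decorin (Dcn), a matrix proteoglycan that binds TGF-beta, differed by 0.45 in the model (adjusted p = 0.0745) and fell by 0.66 with TYA-018.

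Of 15 known target genes of TGF-beta, 9 rose in the model and none fell, and with TYA-018 10 fell and none rose. Their median log2 fold changes were 0.60 and -0.50, beside -0.01 and 0.00 over all genes. Of all genes, 10.9% rose and 10.3% fell in the model, and 8.93% rose and 10.4% fell with TYA-018. Cdkn1a, the cell-cycle inhibitor p21, was at 58.4 ± 7.45, 137 ± 15.7 and 67.3 ± 13 CPM (1.23 and -1.02, adjusted p = 0.000441 and 0.00119, edgeR). The collagen genes Col3a1 (1.23 and -0.79) and Col1a1 (0.99 and -0.50) and the matrix protein gene Postn (1.20 and -0.56) were called in both comparisons. In treated mice against controls 3.12% of all genes were called higher. Among the 15 target genes 3 were called higher there and none lower. These were Cilp, a matrix protein gene named here after its values were seen (1.19, adjusted p = 0.0119), Postn (0.64, adjusted p = 0.0252) and Col1a1 (0.48, adjusted p = 0.0476). Cilp rose by 1.32 in the model and differed by -0.13 with TYA-018 (adjusted p = 0.699). Several of these matrix genes are made mainly by fibroblasts, whose markers moved in the same comparisons.

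Of 6 target genes of the BMP branch, 2 rose in the model and 1 fell with TYA-018, beside 10.9% and 10.4% of all genes. Hey1 rose by 0.83 in the model (adjusted p = 0.00562, edgeR) and differed by -0.45 with TYA-018 (adjusted p = 0.0773). Id3 rose by 0.24 in the model and differed by 0.02 with TYA-018 (adjusted p = 0.861). Atoh8 differed by 0.42 in the model (adjusted p = 0.0575) and fell by 0.90 with TYA-018 (adjusted p = 0.00257).

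**Figure D5:**
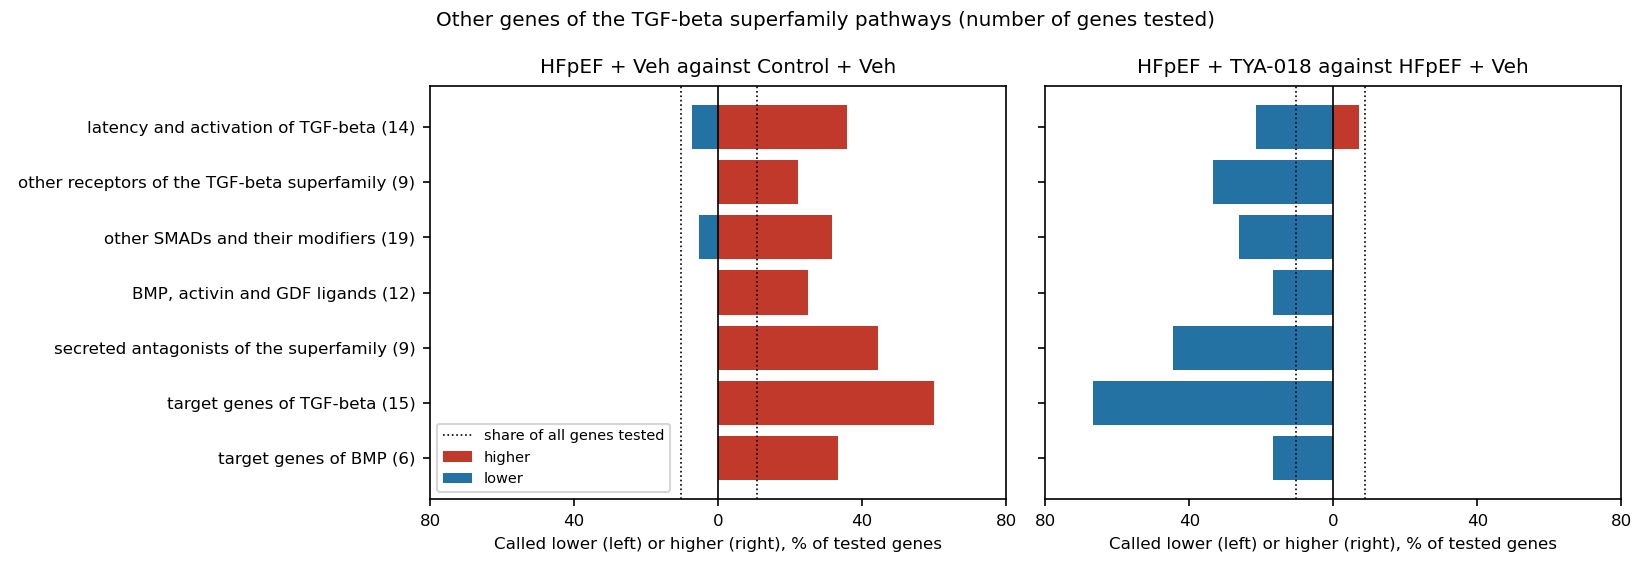
Share of tested genes (horizontal axes, %) called higher (red, right) or lower (blue, left) in 7 lists of related pathway genes, with the number of genes tested in brackets and dotted lines at the share of all genes. TGF-beta target genes show the longest bars in both panels, with 9 of 15 higher in the model and 10 of 15 lower with TYA-018.

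For the 3 members with the widest range of group means, the genes with the most similar profile were found by the root mean square difference of centred log2 CPM over the 12 libraries. The genes nearest to Smad6 were Unc119b, Col4a2, Slc6a6, Emp1 and Ephb4, at distances of 0.129 to 0.157. Col4a2, a basement membrane collagen, was at 205, 386 and 250 CPM on average in control, untreated and treated model mice. Nearest to Smad7 were Hic1, Hey1, Klf4, Myadm and Crispld1 (0.118 to 0.157), of which the transcription factor Klf4 was at 58.4, 96.3 and 75.4 CPM. Nearest to Bambi were Lrrc20, Cpt2, Mboat2, Hadhb and Pqlc2 (0.132 to 0.143). Cpt2 and Hadhb encode enzymes of mitochondrial fatty acid oxidation and were at 157, 171 and 232 CPM and at 755, 830 and 1139 CPM.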

How the data were processed

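RNA sequencing of 12 left ventricles was analysed from 3 deposited tables. The authors trimmed reads with fastp, quantified them with Salmon 1.6.0 against mouse GENCODE transcripts of GRCm38 and summed transcripts to genes with tximport. The labels name the human build hg38 although the genes are mouse genes, and the labels and the published methods differ on read length and layout. The first deposited table holds estimated counts per gene, which need not be whole and are not normalised. The second deposited table holds TPM and the third effective lengths in bases, another kind of value that the authors obtained per gene and library. No value column was left out (0), and no 2 libraries were alike within sampling noise.

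Estimated counts were rounded and tested in edgeR 4.0.16 (R 4.3.3) with filterByExpr, TMM scaling and 1 quasi-likelihood fit over the 3 groups, two-sided, with 9 residual degrees of freedom. Genes were called at an adjusted p under 0.05 (Benjamini-Hochberg over 14333 genes). Values are CPM after TMM, mean ± SD. Alternatives were DESeq2 1.42.0, other scaling, filters, gene lengths as an offset, limma 3.58.1 on TPM and leaving out each library in turn. Scripts were tested on simulated data.

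All 10 genes are named, from each list at most 4 called genes with the smallest p, and for likeness 5 genes for each of the 3 genes with the widest range. Itgb6, Nedd4l and Cilp were added after their values were seen. The members and lists were chosen with earlier results of these data known.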

Additional observations from a re-analysis of the deposited data

Results flagged for a closer look

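In each group of 4 libraries the highest or lowest value of each of the 10 genes was compared with the others by Dixon's test, and 2 of 30 groups held a value that stood apart. Chance alone sets about 1 in 20 such groups apart. Tgfbr1 was at 11.4 CPM in the HFpEF + Veh library V1, against 13 to 13.2 CPM in the other libraries of that group. Smad3 was at 9.08 CPM in the Control + Veh library C3, against 7.38 to 7.62 CPM in the other controls.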

How the results depend on the processing

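No paired analysis was possible because each animal number occurs in 1 group alone. Called genes numbered 3033 in the first comparison (model against control), 2767 in the second (treated against untreated model) and 840 in the last (treated model against control). With effective lengths as an offset they were 1445, 1217 and 203. Limma called 172 and 9 in the first and last comparison on log2(TPM + 1), 301 and 11 on log2(TPM + 0.1), 431, 718 and 25 in the 3 comparisons after rescaling without mitochondrially encoded genes, and 33, 1051 and 11 over all genes above 0. DESeq2 called 1497 in the last. Leaving out 1 library gave 1986 to 3992, 1485 to 2729 and 308 to 809 called genes. The lowest counts came without C4 (1986), without T1 (1485) or T2 (1631), and in the last comparison without T2 (308), C4 (325), T1 (403), T3 (451), C3 (497), T4 (529) or C2 (543). On log2(TPM + 1), log2(TPM + 0.1) and the rescaled TPM, the median of all genes moved by -0.069, -0.17 and -0.022 in the first comparison, by 0.17, 0.34 and 0.093 in the second and by 0.080, 0.17 and 0.075 in the last. On 1 or more of these scales the signs of 5 members turned in the second comparison, those of the called genes Tgfb1, Tgfbr2 and Tgfbr3 among them. Less that median Tgfb1 was still positive (0.12, 0.022 and 0.016), Tgfbr2 was negative, and Tgfbr3 was at 0.029, -0.029 and -0.023.

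Among the members, calls ended without the filter on low counts for Tgfb2 and Tgfb3 in the first comparison (adjusted p = 0.0573 and 0.0556, edgeR) and Tgfbr3 in the second (0.0623), and in the 2-group fit for Tgfb2 in the first (0.0535). Limma on log2(TPM + 1) called Smad6 in the first comparison and Bambi in the second, and over all genes above 0 Bambi in the second. No member changed sign between DESeq2, the other edgeR scalings and filters and the 2-group fits. With lengths as an offset Tgfbr3 was at -0.0064 in the first comparison and Tgfb1 at 0.64 in the last. In the first, on log2(TPM + 1), log2(TPM + 0.1) and rescaled TPM, Tgfbr3 was at -0.12, -0.20 and -0.033, and Bambi at -0.0018 and -0.0079 on the first 2 scales. In the second, values on these 3 scales were 0.28, 0.37 and 0.11 for Tgfb1, 0.15, 0.24 and 0.011 for Tgfb3 and 0.20, 0.32 and 0.070 for Tgfbr3. On the first 2 they were 0.039 and 0.094 for Tgfbr1 and 0.076 and 0.13 for Tgfbr2. In the last they were 0.63, 0.76 and 0.65 for Tgfb1, 0.049, 0.13 and 0.043 for Tgfbr1, 0.074, 0.11 and 0.037 for Tgfbr3 and 0.071, 0.16 and 0.066 for Smad3. All genes above 0 gave the values of log2(TPM + 1). None of these turned values passed the test. The cause of these turns beyond the median shift was not tested. Without 1 library, Smad3 ranged from -0.027 to 0.12 in the second comparison, and in the last Tgfb1 from -0.071 to 0.014, Tgfb2 from -0.13 to 0.039, Tgfbr1 from -0.14 to 0.14, Tgfbr2 from -0.025 to 0.22 and Smad3 from -0.075 to 0.038.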

Other observations

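Other ratios of counts within a library describe the balance between members. Bambi to Tgfbr1, the decoy to the signalling type I receptor, was 0.836 ± 0.200 in controls, 0.766 ± 0.065 in the untreated model and 1.46 ± 0.30 in treated mice (mean ± SD, n = 4). All treated libraries (1.30 to 1.92) lay above all others, the highest of which was 1.06 in C2. The ratio of the 2 signalling receptors, Tgfbr2 to Tgfbr1, was 3.38 ± 0.45, 3.84 ± 0.25 and 3.69 ± 0.66 and overlapped between the groups. Tgfb2 to Tgfb1 was 0.172 ± 0.039, 0.190 ± 0.024 and 0.165 ± 0.012, again with overlap.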
